A study of Schizosaccharomyces pombe with 12 samples.

Results

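Large-subunit ribosomal protein genes of fission yeast (Schizosaccharomyces pombe) were followed in ribosome footprints and total RNA of a strain called delta4dus and of wild type. The 60 genes were taken by systematic ID from a fixed list. All 60 were found among the 5136 rows of each count table. The reference names 59 of the 60 products as proteins of the 60S subunit or of its stalk, and names the product of rpl701 as a ribosomal protein L7-like subunit of RNase MRP. Another 23 large-subunit and stalk rows in the same tables were not on the list and were used only as a comparison. The 60 genes lie on all chromosomes, 23 on I, 22 on II and 15 on III.

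The large subunit forms the peptide bond and holds the tunnel through which the new chain leaves. Its proteins bind ribosomal RNA in equal number, apart from the stalk, where several copies of the acidic proteins P1 and P2 sit on P0 and help to recruit elongation factors. Fission yeast makes many of these proteins from duplicated genes at separate places in the genome, and growing cells spend a large part of their translation on them. Many of the genes have a short promoter element, the HomolD box, in the place where other genes have a TATA box.

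delta4dus cells and wild-type cells were both in mid-log growth and were harvested by filtration without cycloheximide. The strain's name says that 4 dus genes are missing, taken here as dus1, dus2, dus3 and dus4, whose enzymes make dihydrouridine from uridine in RNA. Footprints (monosome-protected fragments of 28 to 32 nt) came from 3 libraries of each genotype, and total RNA from 3 more, with the letters A, B and C in each group and 12 libraries in all. The labels do not say how the genes were deleted or that the letters are separate cultures, so p-values measure only the spread between these libraries, which may be technical. Totals ran from 601969 to 2591755 counts per footprint library, with wild-type replicate B the shallowest, and the total RNA libraries held 1886954 to 2199320 counts each. In footprints dus1 had 0, 0 and 0 counts in delta4dus, against 65, 25 and 38 counts in wild type, and all 4 dus genes were lower. dus2 kept 7, 3 and 4 counts in delta4dus, against 46, 14 and 11 in wild type, and dus4 kept 6, 7 and 22 counts in delta4dus, against 24, 9 and 16 in wild type, so a full loss of these genes was not seen. In total RNA 3 of the 4 dus rows were called lower and 1 higher. Where a coding gene lay on the opposite strand, total RNA rows went with that gene's footprints rather than their own (values below). The total RNA rows were therefore not read as mRNA, and the results rest on footprints.

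The sequences that follow show a promoter element that these genes share with other ribosomal protein genes. The HomolD box, CAGTCACA, was searched on both strands in the 150 bases before the annotated gene start. It was found for 40 of the 60 genes (66.7%), against 126 of 5123 promoters of all genes (2.46%) and 38 of 4985 promoters of genes that are not ribosomal protein genes (0.762%). Of the other ribosomal protein genes, 48 of 78 had it (61.5%). With 1 mismatch allowed it was found for 58 of the 60 genes (96.7%), against 96.2% of the other ribosomal protein genes and 10.2% of all promoters. The HomolE box, another element of ribosomal protein promoters, was found for 16 of the 60 genes (26.7%), against 32.1% of the other ribosomal protein genes and 1.15% of all promoters, and 12 genes had both boxes. The 80 bases before the start of 4 genes are given 5′ to 3′ on the plus strand, from the RefSeq genome ASM294v3, with the HomolD box in capitals.
rpl2001 (chrI:1438273-1438352): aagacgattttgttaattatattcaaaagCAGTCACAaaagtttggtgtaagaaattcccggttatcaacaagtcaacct
rpl2002 (chrI:3337651-3337730): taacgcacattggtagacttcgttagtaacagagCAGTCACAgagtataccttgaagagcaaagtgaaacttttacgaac
rpl301 (chrI:1756005-1756084): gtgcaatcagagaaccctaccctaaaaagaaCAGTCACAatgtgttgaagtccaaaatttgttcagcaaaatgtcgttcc
rpl2502 (chrII:2690741-2690820): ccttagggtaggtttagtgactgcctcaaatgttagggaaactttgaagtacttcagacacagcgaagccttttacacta

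rpl2001 and rpl2002 make the same protein and are among the 3 genes with the largest footprint change below. rpl301 takes the largest share of footprints of the 60 genes. rpl2502 has the smallest footprint change and no exact box in the window, which says only that these letters are not there. With 1 mismatch allowed, 2 boxes are found in its 150-base window. The authors' notes name the build ASM294v2. Their files hold no coordinates, so sequences and positions were read from ASM294v3 through its own annotation, by systematic ID.

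**Figure D1:**
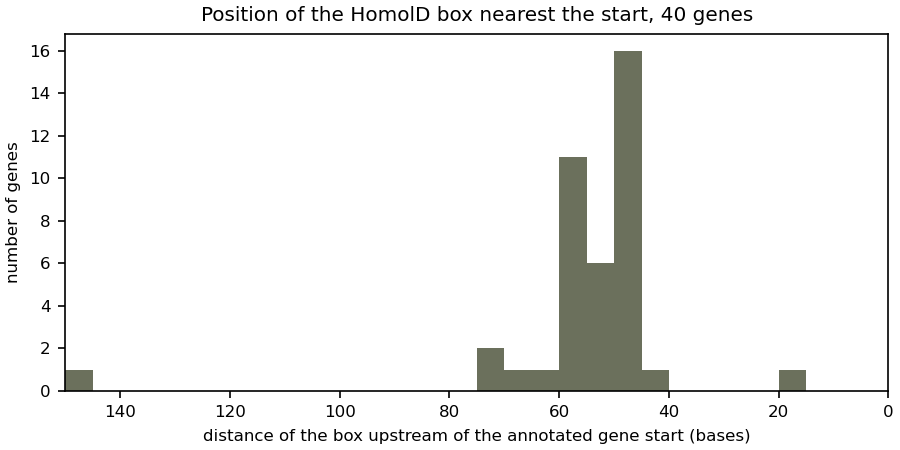
Histogram of the distance in bases (x axis) from the annotated gene start to the HomolD box nearest to it, for the 40 genes with an exact box, with the number of genes on the y axis. The boxes of 38 of the 40 genes lie between 43 and 75 bases upstream, with a median over the 40 of 50.5 bases.

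The box stood at a near-constant place. The distance was 51 bases for rpl2001, 46 bases for rpl2002 and 49 bases for rpl301. The exceptions to the 43 to 75 base window were rpl701 at 16 bases and rpl902 at 148 bases. Of the 42 boxes found, 30 read forward and 12 read on the reverse strand, and the plot of distances counts each gene once.

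The 60 genes together took a larger share of footprints in delta4dus. They held 13.95%, 13.88% and 14.15% of all footprint counts in the delta4dus libraries, against 12.35%, 12.13% and 12.14% in the wild-type libraries. The lowest delta4dus share lay above the highest wild-type share, and the means were 13.99% ± 0.141 in delta4dus and 12.21% ± 0.121 in wild type (SD, n = 3 each), a difference of 1.79 percentage points. No test was made of this sum, since the list was set with results of these data known.

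Other groups of rows moved as well. Small-subunit ribosomal protein genes held 11.9% ± 0.129 of footprints in delta4dus and 10.7% ± 0.105 in wild type (SD, n = 3 each). The 23 other large-subunit and stalk rows held 3.68% ± 0.0139 in delta4dus and 3.24% ± 0.0541 in wild type. The ratio of the 60 genes to the small-subunit genes was 1.17, 1.18 and 1.18 in delta4dus, against 1.14, 1.14 and 1.15 in wild type, and every delta4dus ratio lay above every wild-type ratio. A set of 11 chaperone genes held 3.10% in delta4dus and 1.59% in wild type. Without those chaperone rows in the denominator the shares of both genotypes were higher and the difference of the 60 genes was 2.04 percentage points. The ratio of delta4dus to wild type was then 1.16, against 1.15 with all rows. The part of the chaperones in the result was not tested further.

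**Figure D2:**
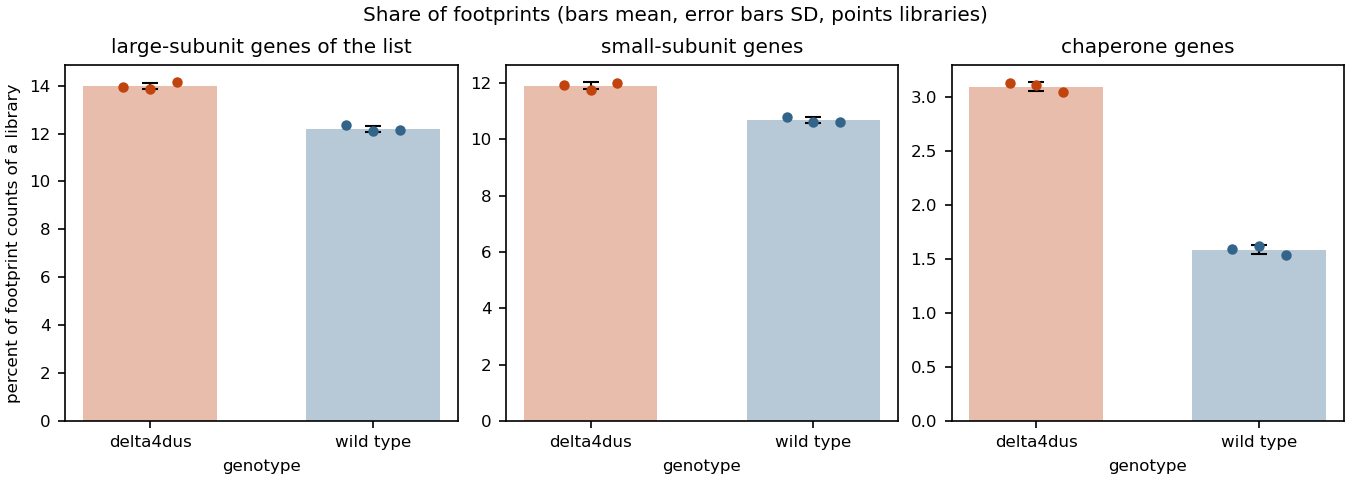
Percent of a library's footprint counts (y axis) on the 60 large-subunit genes, on the small-subunit genes and on 11 chaperone genes, for delta4dus and wild type (x axis). Points are libraries, bars are means and error bars are the SD of 3 libraries, and in each panel the 3 delta4dus points lie above the 3 wild-type points.

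Gene by gene, 59 of the 60 genes rose in delta4dus footprints and none fell (edgeR quasi-likelihood test, Benjamini-Hochberg adjusted p under 0.05 over 4505 rows). Over all rows tested, 14.5% were called higher and 14.1% lower. All 60 genes had every delta4dus library above every wild-type library in CPM (counts scaled to a fixed library total with TMM factors), a pattern that 19% of all rows tested showed. The median log2 fold change, delta4dus over wild type, was 0.40 (a 1.32-fold difference), the interquartile range was 0.36 to 0.45, and the whole range was 0.11 to 0.70, against a median of -0.03 over all rows. Scaled to library totals without TMM, the median of all rows was -0.23 and that of the 60 genes 0.19, so that relative to all rows it was 0.42 in place of 0.43. On that scale 54 of the 60 were called higher, and rpl2502 (-0.09) and rpl401 (-0.01) had the opposite sign.

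**Figure D3:**
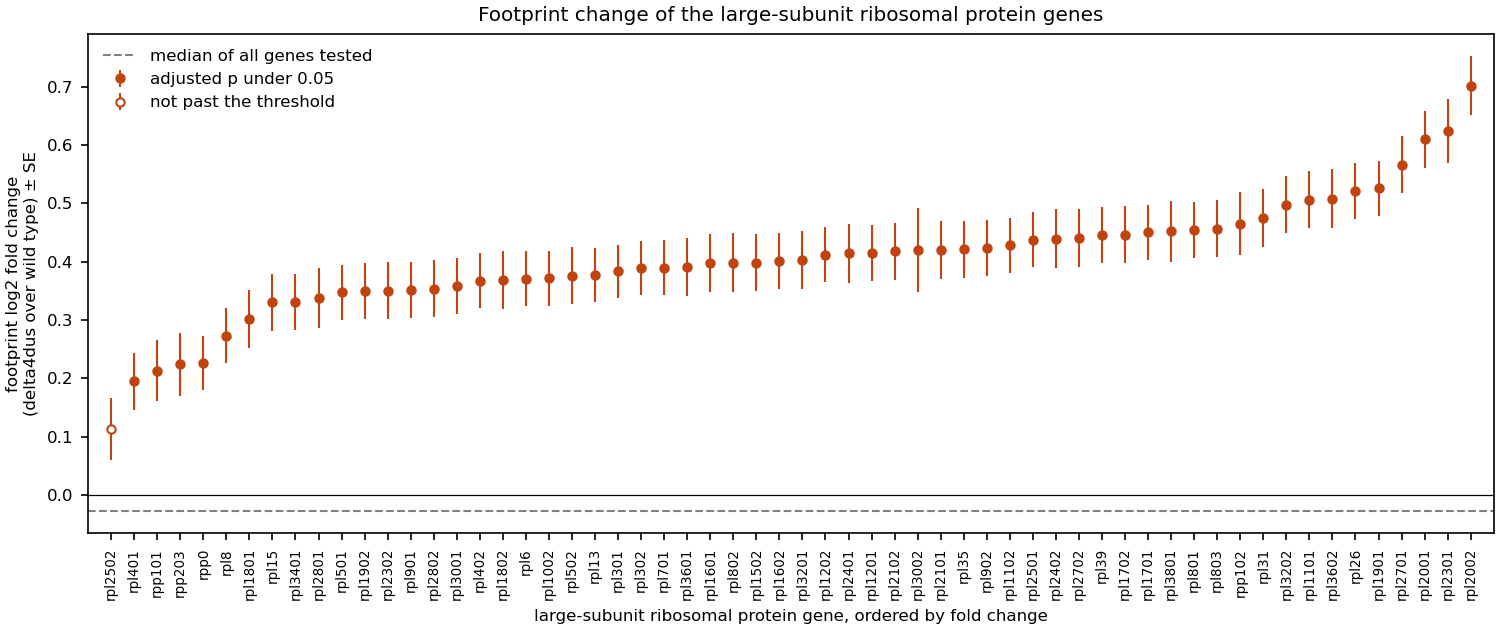
Footprint log2 fold change, delta4dus over wild type (y axis), with its SE, for each of the 60 genes (x axis) in order of size, with TMM scaling. All points lie above 0 and above the dashed median of all rows tested (-0.03), and the open point is rpl2502; scaled to library totals instead, rpl2502 and rpl401 lie below 0.

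The SD of the changes over the 60 genes was 0.0997, larger than the median SE per gene of 0.0486. The 24 genes with an intron in the coding sequence had a median of 0.40 and the 36 without one 0.41, and the 40 genes with a HomolD box had 0.41 and the 20 without it 0.40. Footprint density in delta4dus and in wild type had a Spearman rho of 0.98 across the 60 genes, which share libraries and lengths.

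Of the proteins, eL20 had the largest change summed over its gene copies. rpl2002 (SPAC26A3.04.1, chromosome I, 3337731 to 3338408) had 3530, 3334 and 3649 CPM in delta4dus libraries A to C, against 2186, 2314 and 1973 CPM in wild type. Its log2 fold change was 0.70 (SE 0.0502, adjusted p = 3.17e-20), a 1.63-fold difference. rpl2001 (SPAC3A12.10.1, chromosome I, 1438353 to 1439013) had 3677, 3500 and 3769 CPM in delta4dus, against 2468, 2477 and 2226 CPM in wild type (log2 fold change 0.61, SE 0.0488, adjusted p = 7.9e-18). In both genes the lowest delta4dus library stood far above the highest wild-type library. Their coding sequences are 92.1% identical and their proteins 100%, and 84.9% of the 28-base words of each occur in no other coding sequence of the tables.

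rpl2301, rpl2701 and rpl1901 made up the rest of the 5 largest changes. rpl2301 (SPAC3G9.03.1), for the interface protein L23 (uL14) that contacts the anti-association factor eIF6, had 1355, 1314 and 1238 CPM in delta4dus, against 841, 951 and 755 CPM in wild type (log2 fold change 0.62, SE 0.055). rpl2701 had 2488, 2513 and 2518 CPM in delta4dus, against 1782, 1610 and 1658 CPM in wild type (0.57, SE 0.0485). rpl1901, for L19, which bridges to the small subunit, had 3342, 3255 and 3294 CPM in delta4dus, against 2305, 2316 and 2249 CPM in wild type (0.53, SE 0.047). The groups of libraries were well apart in each, and the largest adjusted p among all 59 genes called was 0.000969.

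The 5 genes with the densest footprints per coding length in wild type, rpl39, rpl31, rpl26, rpl3401 and rpl35, also rose. rpl26 encodes uL24, at the rim of the exit, and had 3368, 3250 and 3407 CPM in delta4dus, against 2462, 2191 and 2303 CPM in wild type (log2 fold change 0.52, SE 0.0483). rpl31, for eL31, had 3316, 3286 and 3387 CPM in delta4dus, against 2550, 2182 and 2415 CPM in wild type (0.47, SE 0.0491). rpl39, for the short protein eL39 inside the tunnel, had 2347.12, 2332.72 and 2463.12 CPM in delta4dus, against 1747.16, 1681.99 and 1812.41 CPM in wild type (0.45, SE 0.0482). The libraries of the genotypes did not overlap in any of them. rpl35, also of the exit rim, had 2961, 2868 and 2950 CPM in delta4dus, against 2301, 2032 and 2192 CPM in wild type (0.42, SE 0.0484), and rpl3401 had 2611, 2474 and 2673 CPM in delta4dus, against 2088, 2069 and 2006 CPM in wild type (0.33, SE 0.0478).

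At the low end stood rpl2502 (SPBC4F6.04.1, chromosome II, 2690821 to 2691722), the lesser copy for uL23, a tunnel-exit protein where nascent-chain factors dock. It had 862, 871 and 935 CPM in delta4dus, against 809, 803 and 861 CPM in wild type (log2 fold change 0.11, SE 0.053, adjusted p = 0.103). Its lowest delta4dus value and its highest wild-type value were nearly equal. It is the gene that did not pass the test, and it passed without wild-type replicate C (0.14, adjusted p = 0.0464). rpl401 (SPBC1711.06.1), for uL4, which reaches into the tunnel, had 1970, 1885 and 2019 CPM in delta4dus, against 1757, 1726 and 1641 CPM in wild type (0.20, SE 0.0484, adjusted p = 0.000969).

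Of the stalk genes on the list, 3 of 4 were near the low end. rpp0, for the P0 base (uL10), had 3858, 3791 and 3928 CPM in delta4dus, against 3266, 3389 and 3251 CPM in wild type (log2 fold change 0.23, SE 0.0465, adjusted p = 5.99e-05). rpp101 (SPAC644.15.1), for P1, had 1000, 984 and 927 CPM in delta4dus, against 855, 831 and 814 CPM in wild type (0.21, SE 0.0522, adjusted p = 0.000828). rpp203, for P2, had 1119, 963 and 1006 CPM in delta4dus, against 881, 937 and 828 CPM in wild type (0.22, SE 0.0544, adjusted p = 0.000737). The second P1 gene, rpp102, changed more, with 1424, 1275 and 1336 CPM in delta4dus, against 1059, 926 and 898 CPM in wild type (0.46, SE 0.0537). Without TMM the log2 fold changes of rpp0, rpp101 and rpp203 were 0.02, 0.01 and 0.02 and none passed, and with all libraries thinned to the smallest total rpp101 did not pass (0.16, adjusted p = 0.0701).

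Levels between genes were compared as footprint density, in CPM per kb of coding sequence. In wild type the 60 densities ran from 733 to 11200 with a median of 3365, against a median of 35.5 over all rows tested, and 59 of the 60 genes were among the 200 densest rows. In delta4dus they ran from 969 to 15263 with a median of 4204. The highest was rpl39 (15263 ± 458 in delta4dus and 11200 ± 418 in wild type, SD, n = 3 each). The lowest were rpl3002 (969 ± 83.8 in delta4dus and 733 ± 39.2 in wild type), rpl401 (1793 ± 61.8 in delta4dus and 1564 ± 55.1 in wild type) and rpl802 (2128 ± 39.8 in delta4dus and 1604 ± 114 in wild type). rpl802 encodes uL2, close to the peptidyl transferase centre, and had 1654, 1617 and 1594 CPM in delta4dus, against 1304, 1232 and 1131 CPM in wild type (log2 fold change 0.40, SE 0.0505).

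Much of that range lay between copies of the same gene. Over genes the wild-type density varied 15.3-fold, and summed over all copies of a protein, those outside the list included, it varied 3.18-fold over 36 proteins. The low end of the range over genes is a single gene, rpl3002 at 733, and the next lowest is rpl401 at 1564. Of the 36 sums, 33 lay between 4500 and 9500 CPM per kb in wild type. The extremes were P0 at 3517 and L39 at 11200, each made from 1 gene. The 8 genes without another copy had a median density of 5621 and the 52 genes with another copy 3120, while the sum per protein had a median of 5621 for the 8 proteins and of 6562 for the 28 made from more than 1 gene. The log2 ratio of these sums, delta4dus over wild type, ran from 0.22 for P0 to 0.65 for L20, with a median of 0.40.

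**Figure D4:**
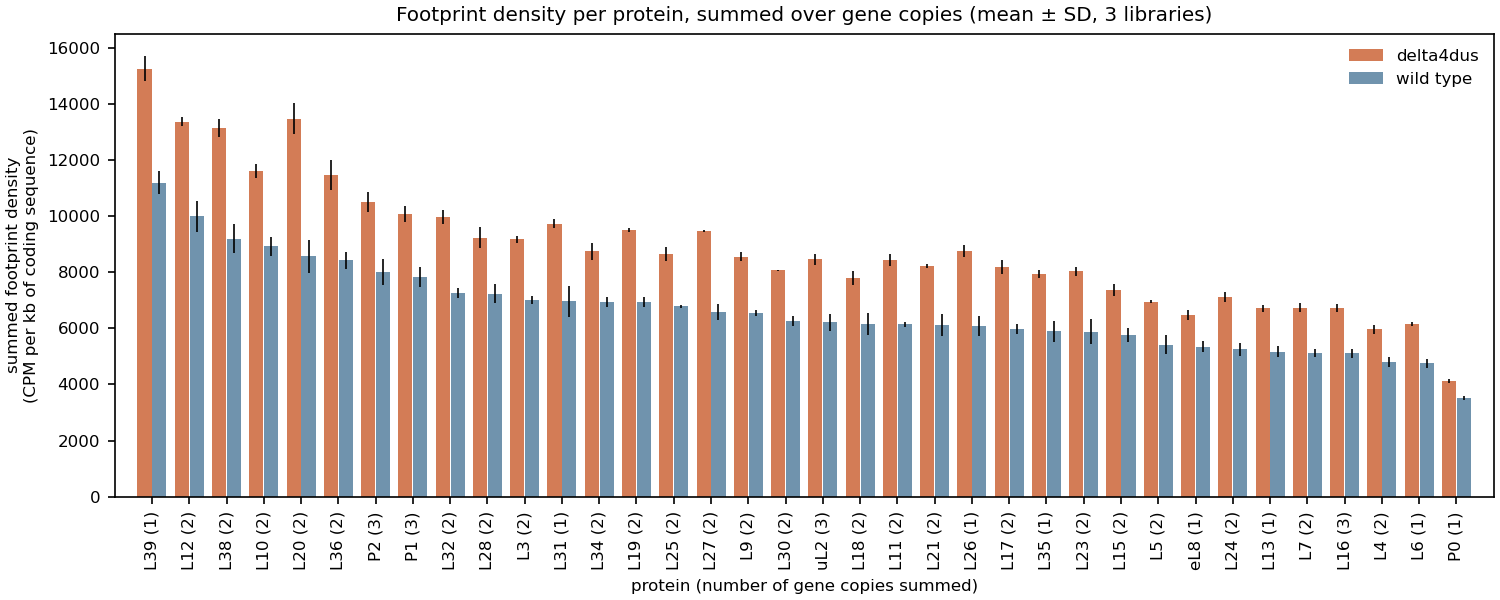
Footprint density in CPM per kb of coding sequence (y axis), summed over the gene copies of each of 36 proteins (x axis, with the number of copies), for delta4dus and wild type. Bars are means and error bars the SD of 3 libraries; with TMM scaling the delta4dus bar is the taller for every protein, L39 is the highest and P0 the lowest.

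P1 and P2, which sit in several copies on P0, were set against P0. P1 over P0 had a density ratio of 2.54, 2.46 and 2.37 in delta4dus, against 2.36, 2.11 and 2.20 in wild type. P2 over P0 was 2.65, 2.55 and 2.46 in delta4dus, against 2.44, 2.21 and 2.18 in wild type. Both ratios were above 2 in every library, and higher in each delta4dus library than in each wild-type library (means 2.46 ± 0.0844 in delta4dus and 2.22 ± 0.130 in wild type for P1, and 2.56 ± 0.0949 in delta4dus and 2.28 ± 0.141 in wild type for P2, SD, n = 3 each). For P1 the closest libraries were nearly equal, at 2.367 in delta4dus replicate C and 2.365 in wild-type replicate A. P0 had the smallest log2 ratio of the 36 protein sums (0.22), and P1 (0.37) and P2 (0.39) lay near the median of 0.40. A rise over P0 is therefore not particular to P1 and P2. Nor is the level, since P0 had the lowest wild-type sum of the 36 proteins (3517). Proteins such as L12 (10004) and L39 (11200) lay above P1 (7818) and P2 (8004) in wild type. The ratios are not read as copy numbers in the stalk. Exact permutation of 3 against 3 libraries cannot give a two-sided p below 0.1. The sums include rpp103, rpp201 and rpp202, which are not on the list, and rpp202 had the largest change of the 23 other rows (log2 fold change 0.75).

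Balance between copies was taken as the share of the first-named gene in its family's footprint counts, a value that does not depend on the scaling of the library. There were 23 families with 2 or more listed genes, 47 genes in all, and 13 genes stood alone. The median absolute difference between genotypes was 1.20 percentage points, and in 10 families it was under 1 point. In 10 of the 23 families (43.5%) the libraries of the genotypes did not overlap, and so it was in 9 of the 23 small-subunit families (39.1%). Each of the 10 had an exact two-sided permutation p of 0.1, the smallest possible, and so no family could pass 0.05. Without wild-type replicate B, the shallowest library, the count of families was 16; with fewer libraries, groups overlap less readily.

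**Figure D5:**
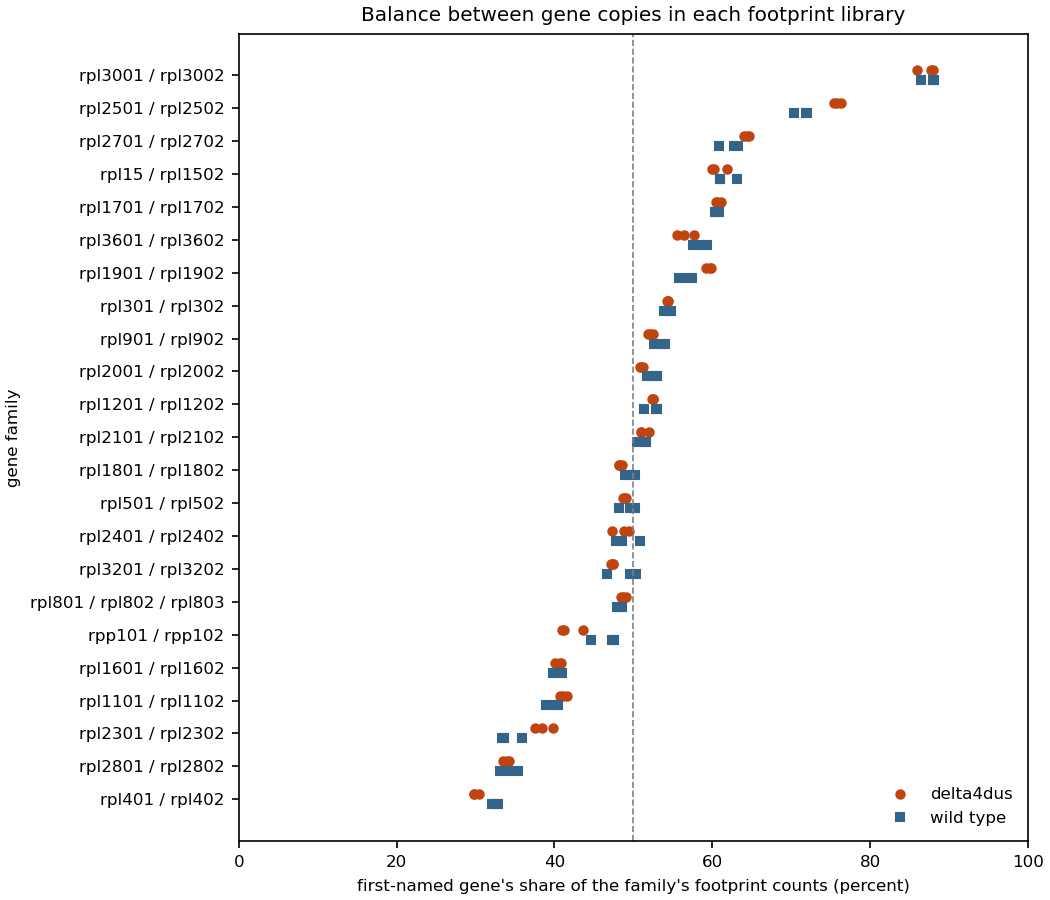
Share in percent of the first-named gene in the footprint counts of its family (x axis) for 23 families (y axis), with a point for each delta4dus library above a square for each wild-type library. The dashed line marks 50%; rpl3001 holds the highest share and rpl401 the lowest, and the genotypes are farthest apart for rpp101, rpl2501 and rpl2301, with rpp103 not counted in the P1 family.

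Among the listed copies, P1 and the families of uL23 and L23 had the largest shifts. rpp101 held 41.3%, 43.6% and 41.0% of the counts of rpp101 and rpp102 in delta4dus, against 44.7%, 47.3% and 47.6% in wild type, a difference of -4.57 points. With the third P1 gene, rpp103, which is not on the list, counted in the family, the difference was -3.17 points, smaller than in uL23 and L23. In uL23, rpl2501 held 76.3%, 75.9% and 75.5% in delta4dus, against 72.1%, 71.9% and 70.4% in wild type (4.43 points). In L23, rpl2301 held 39.8%, 38.5% and 37.5% in delta4dus, against 33.6%, 35.9% and 33.3% in wild type (4.32 points). In uL23 the major copy gained share, and in L23 the minor copy did. The copies' levels, from the same counts, were as follows. rpl2501 had 2782, 2737 and 2877 CPM in delta4dus, against 2088, 2055 and 2050 CPM in wild type (log2 fold change 0.44), and rpl2302 had 2049, 2102 and 2063 CPM in delta4dus, against 1664, 1696 and 1512 CPM in wild type (0.35).

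In L19, rpl1901 held 59.9%, 59.3% and 59.7% in delta4dus, against 55.8%, 56.9% and 57.5% in wild type (2.89 points), and its partner rpl1902 had 2239, 2238 and 2224 CPM in delta4dus, against 1826, 1754 and 1664 CPM in wild type (log2 fold change 0.35). In uL4, rpl401 held 29.8%, 29.8% and 30.5% in delta4dus, against 32.8%, 32.2% and 32.8% in wild type (-2.55 points). Its partner rpl402 had 4645, 4439 and 4599 CPM in delta4dus, against 3595, 3642 and 3369 CPM in wild type (0.37). The other families without overlap were those of rpl2701, rpl2001, rpl1101, rpl901 and rpl1801, with differences of 2.07, -1.56, 1.34, -1.32 and -1.20 points.

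In the most uneven family the shares of the genotypes overlapped. rpl3001, for eL30, whose budding yeast counterpart controls the splicing of its own transcript, held 88.0%, 87.8% and 86.0% in delta4dus, against 88.0%, 86.4% and 88.1% in wild type. It had 2368, 2355 and 2311 CPM in delta4dus, against 1883, 1748 and 1835 CPM in wild type (log2 fold change 0.36, SE 0.0478). rpl3002 had 323, 329 and 377 CPM in delta4dus, against 256, 275 and 248 CPM in wild type (0.42, SE 0.072). The uL2 family has 3 genes, and rpl801, rpl802 and rpl803 held 48.7%, 25.1% and 26.1% in delta4dus, against 48.3%, 25.8% and 25.9% in wild type.

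How well footprints can be told apart between copies differs by family. The following coding bases come from RefSeq ASM294v3, with capitals where the copy differs from its partner, for uL23, a family with a large shift, and for the family whose copies are most alike.
rpl2501 (chrII:413556-413615, plus strand, coding bases 1 to 60): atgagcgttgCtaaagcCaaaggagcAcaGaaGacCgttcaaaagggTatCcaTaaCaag
rpl2502 (chrII:2690831-2690890, plus strand, coding bases 1 to 60): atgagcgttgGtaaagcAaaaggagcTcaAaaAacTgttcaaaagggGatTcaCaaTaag
rpl1201 (chrIII:691135-691194, minus strand, coding bases 439 to 498): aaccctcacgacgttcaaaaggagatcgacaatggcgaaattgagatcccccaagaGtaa
rpl1202 (chrIII:627212-627271, minus strand, coding bases 439 to 498): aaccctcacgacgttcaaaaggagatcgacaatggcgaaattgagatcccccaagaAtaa

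The uL23 copies differ at 10 of these 60 bases and at 82 of their coding bases in all, and 99.5% of the 28-base words of rpl2502 occur in no other row. The copies for uL11, at the base of the stalk, differ at 2 of 498 bases, share a run of 485 bases, and have 2.76% of their 28-base words to themselves. Their shares of 52.5%, 52.4% and 52.5% for rpl1201 in delta4dus, against 53.0%, 51.3% and 52.8% in wild type, and their log2 fold changes of 0.41 each are therefore uncertain as values of single copies. The copies for uL3, close to the peptidyl transferase centre, have 27.8% to themselves and log2 fold changes of 0.38 for rpl301 and 0.39 for rpl302, and rpl1002 has 36.3%. Over the 60 genes the median was 97.6%. How the authors treated reads that match more than 1 place is not given in the sources used here.

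Genes that serve the same subunit were read from the same fit. All 55 small-subunit genes and all 23 other large-subunit and stalk rows were called higher, with median log2 fold changes of 0.38 and 0.38. Of 75 symbols of 60S assembly factors, 59 had a row that was tested: 10 rose, 5 fell and 44 did not pass, with a median of 0.09. mak16 and rpf2, nucleolar factors of 60S assembly, had log2 fold changes of 0.52 (SE 0.127) and 0.39 (SE 0.0867). mdn1, the large ATPase that strips factors from the particle, and noc3 fell by 0.67 (SE 0.108) and 0.50 (SE 0.114) on the log2 scale. The assembly factors' share of rises, 16.9%, was near that of all rows, 14.5%, and 14.1% of all rows fell.

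Of 8 regulators of ribosomal protein gene transcription with a row, sfp1 rose, psk1 fell and 6 did not pass. The 1 rise is 12.5% of the 8, against 14.5% of all rows tested, and 14.1% of all rows fell. These shares are close, so the calls are not read as a result about the regulators. sfp1 had 149, 166 and 267 footprint counts in delta4dus, against 130, 49 and 46 counts in wild type (log2 fold change 0.53, SE 0.127, adjusted p = 0.000666). psk1, a kinase of ribosomal protein S6 in fission yeast, had 40, 62 and 83 counts in delta4dus, against 92, 41 and 32 counts in wild type (-0.68, SE 0.179, adjusted p = 0.00189). Scaled for depth, sfp1 averaged 97.5 ± 11.9 CPM in delta4dus and 67.8 ± 10.9 CPM in wild type, and psk1 30.8 ± 5.1 CPM in delta4dus and 51.1 ± 12.7 CPM in wild type (SD, n = 3 each). fhl1 (-0.16) and ifh1 (-0.08) did not pass.

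Total RNA gave little on these genes. The 60 rows together held 0.0344%, 0.0356% and 0.0310% of total RNA counts in delta4dus, against 0.0373%, 0.0267% and 0.0325% in wild type, and these ranges overlap. Their median was 4.92 counts per library, against 3278 in footprints, and 43 of the 60 rows averaged under 10 counts. Of the 60 genes, 11 overlap a coding gene on the opposite strand. Over the 1748 rows with a coding gene on the opposite strand, total RNA counts had a Spearman rho of 0.70 with the footprint signal of that opposite gene and of -0.25 with the row's own footprints. The rows were therefore not read as mRNA of the ribosomal protein genes, and whether mRNA abundance moved with the footprints cannot be told from them.

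Of the 60 rows, 17 had enough total RNA counts to be tested: 1 was higher in delta4dus and 2 were lower, against 12.5% and 10.4% of all rows tested. The rpl2502 row had 62, 62 and 39 counts in delta4dus, against 13, 14 and 34 counts in wild type (log2 fold change 1.20, SE 0.295, adjusted p = 0.00993), and the annotation has no gene on the other strand there. The rpl15 row had 9, 6 and 6 counts in delta4dus, against 17, 12 and 13 in wild type (-1.20, SE 0.331, adjusted p = 0.0184), a call lost with DESeq2 (adjusted p = 0.0945) and without wild-type replicate A (0.0862), delta4dus replicate B (0.0740) or delta4dus replicate C (0.0531). The rpl15 row passed the filter on low counts only through its wild-type libraries, the higher group, so its call is no independent support. With no filter on low counts rpl15 was -1.22 (edgeR adjusted p = 0.0264). The rpl701 row had 13, 16 and 4 counts in delta4dus, against 202, 10 and 7 in wild type (-2.93, SE 0.969, adjusted p = 0.0414). It rests on wild-type replicate A, without which it was 0.13 (adjusted p = 0.885), and the call was also lost without any of the delta4dus replicates (adjusted p = 0.0717 to 0.129).

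The genotype by assay interaction, which sets the footprint change against the total RNA change, could be fitted for the same 17 rows. It was called higher for 5 and lower for 1, against 6.34% and 13.9% of all rows tested. The higher rows were rpl701 (log2 3.34, adjusted p = 0.00108), rpl15 (1.55, 0.00275), rpl2801 (1.00, 0.0158), rpl1702 (0.79, 0.00192) and rpp102 (0.63, 0.00715), and the lower row was rpl2502 (-1.06, 0.00268). The rpl15 row again entered the fit only through its wild-type total RNA counts, so its interaction call carries the same limit. The rpl701 call was lost without wild-type total RNA replicate A (0.28, adjusted p = 0.728), and that of rpl2801 without wild-type replicate B (0.84, adjusted p = 0.0901). Without wild-type total RNA replicate C the rpl2502 value was -1.60, and the range over single libraries left out was -1.60 to -0.80, with the call kept in each case. The rpl1702 and rpp102 rows overlap coding genes on the other strand, coy1 by 435 bases and trs23 by 103 bases. Since the total RNA rows were not read as mRNA, these values are not read as translational efficiency.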

How the data were processed

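Ribosome footprints and total RNA of delta4dus and wild-type fission yeast were each sequenced in 3 libraries per genotype. For either assay the authors deposited unnormalized counts of reads on each transcript, in whole numbers. The submitters' processing notes name Trimmomatic 0.36, Bowtie2 2.4, HISAT2, featureCounts and the build ASM294v2; the strand setting and the handling of reads with several matches are not given in the sources used here. All 12 count columns were mapped by genotype and letter, with 0 left over. The authors' deposited table of comparisons was not used here.

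Counts were used as deposited. Genotypes were compared by the two-sided quasi-likelihood test of edgeR 4.0.16 in R 4.3.3, with TMM scaling and the standard filterByExpr filter, over the whole table, and p-values were adjusted over all rows tested (Benjamini-Hochberg, threshold 0.05). SE is the log2 fold change over the square root of F. The interaction was fitted over 12 libraries with TMM within each assay. DESeq2 1.42.0 was an alternative. Gene names, coding lengths, promoters and coding sequences came from RefSeq ASM294v3 by systematic ID, which matched 5107 of 5136 rows; density is CPM per kb of coding sequence. Python 3.11.15 with pandas 2.3.3, numpy 2.4.6, scipy 1.17.1, Biopython 1.88 and matplotlib 3.10.9 did the rest.

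The 60 genes and all lists were chosen with earlier results of these data known. Values in every library are given for the 5 largest and 5 smallest footprint changes, the 5 highest and 3 lowest wild-type densities, the stalk genes, genes not called, and the families with the 5 largest shifts and the 3 most uneven balances; in total RNA and the interaction, for up to 5 rises and 5 falls called. Families follow the protein number in the symbol, except that rpl8 and rpl801 to rpl803 were separated because their products differ. The sums per protein, the P1 and P2 ratios, the check of 28-base words and the small-subunit families were chosen after seeing the data. So were the splits by intron and HomolD, the correlations over the 60 genes, the distance and density windows and the sequences shown. The letters were not treated as pairing the footprint libraries, since the labels state no pairing and the same-letter deviations, though positive, correlate at 0.0575, 0.0317 and 0.0339, all under the 0.1 required.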

Additional observations from a re-analysis of the deposited data

How the results depend on the processing

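In footprints, 54 to 60 genes were called higher and 0 lower under every alternative run: RLE factors, DESeq2, no filter, a mean of at least 50 counts, thinning, library totals, the letter as a block and leaving out each library. The median log2 fold change was 0.35 with a mean of at least 50 counts, 0.19 with library totals and 0.38 to 0.44 without single libraries. With library totals rpl2502 (-0.092) and rpl401 (-0.013) took the opposite sign. With the replicate letter as a block, 59 genes were higher and 0 lower in footprints, and 5 and 1 in the interaction. A block per genotype and letter, added after seeing the data, gave the same interaction counts. The labels do not say that a letter joins a footprint library to a total RNA library. Without a block each footprint library correlates best with its own letter, a hint from the data, not the design. The share difference was 2.54 points without the 20 other rows with most counts and 2.04 without chaperone genes, and 1.71 to 1.86 without single libraries. Leaving out rows raises the share in both genotypes, so these points are not on the scale of all rows. The ratio of delta4dus to wild type was 1.16 without either set of rows, against 1.15 with all rows. Families without overlap were 10 to 16 without single libraries. In total RNA rows, 0 genes were lower with DESeq2 and 0 to 2 without single libraries, and rpl701 ran from -3.50 to 0.13 without single libraries. A mean of at least 50 counts left 2 rows, with 0 higher and 0 lower. In the interaction, 8 were higher with RLE factors, and with at least 50 counts 1 was higher and 0 lower. With the copy outside the list, the rpp101 shift was -3.17 points, also added after seeing the data. Low counts limit the total RNA rows, of which 43 averaged under 10 counts. The total RNA libraries held 1886954 to 2199320 counts, against 601969 to 2591755 for footprints. Shared sequence limits single copies of uL11 and uL3. The cause of these differences was not tested.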
